A study of Mus musculus with 20 samples.

Results

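The circadian clock genes Per1, Per2, Per3, Cry1, Cry2, Arntl, Clock, Nr1d1, Dbp and Ciart were followed in the hypothalamus of diet-induced obese mice injected with celastrol or with its solvent DMSO. The genes were chosen by name, and each was read from probe sets that the array's annotation gives that symbol and no other. All 10 of 10 were found among 18704 genes with such a probe set, on 11 probe sets. Ciart alone had more than 1, and its brighter probe set stands for it unless the dimmer is named. All 10 were above the intensity limit that left 14129 genes for testing.

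The arrays were Affymetrix Mouse Gene 1.0 ST, hybridised with RNA of the hypothalamus, and each value is a log2 intensity. All mice were male C57BL/6J, fed a 45% high fat diet for 16 weeks from 4 weeks of age, and no lean or uninjected group is used here. Celastrol, a plant triterpenoid that reduces food intake in obese mice, was given by intraperitoneal injection for 6 h (4 arrays), 1 day (4 arrays) or 4 days (3 arrays), and DMSO for the same times (3 arrays each). The labels call these arrays biological replicates. They write 250 ug/kg beside the 6 h celastrol group, a volume of 100 ul beside the later celastrol groups and 25 ul of DMSO per day, and do not settle whether the dose was the same at every time. They give neither lighting nor time of day, so time since injection and clock time cannot be told apart. In a dissected tissue, fewer cells of a type and less RNA per cell cannot be told apart either. Of 18 hypothalamic neuron markers, 17 were tested, and their mean intensity was 10.33 to 10.51 on every array. Other marker lists differed between some groups, and their values stand beside the results they touch. Replicate 3 of the DMSO 6 h group and replicate 3 of the DMSO 1 day group stood apart: on the leading component of the deviations from group means (25.0% of their variance) they scored 11.4 and 9.61, and the other arrays between -6.13 and 5.32.

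The clock is a feedback loop of transcription that runs in nearly every cell. CLOCK and BMAL1, the product of Arntl, bind E-boxes and switch on Per and Cry genes, whose proteins return to the nucleus and block them. The same pair switches on Nr1d1, which encodes REV-ERB alpha, a repressor of Arntl, and Dbp, an activator of output genes through D-boxes. In the hypothalamus the loop is known for the suprachiasmatic nucleus, the pacemaker that light sets, and for neurons that time feeding. Per1 is also induced directly by glucocorticoids and by light.

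Per1, a repressor of CLOCK and BMAL1, was the only clock gene whose celastrol difference passed with the brighter Ciart probe set in use. The dimmer Ciart probe set passed as well and is given below. At 1 day the intensity of Per1 was 10.27, 10.28, 10.16 and 10.26 in celastrol hypothalami, against 9.94, 10.04 and 9.89 in DMSO hypothalami. Every celastrol array was above every DMSO array. How many of all genes separate in this way was not counted. With 3 or 4 arrays per group, a lack of overlap is therefore given here and below as a description only. The difference was 0.29 ± 0.050 on the log2 scale (SE), 1.22-fold with a 95% interval of 1.13 to 1.31 (limma, adjusted p = 0.0124 over the 14129 genes). At 4 days the intensities were 10.20, 10.24 and 10.27 with celastrol and 9.92, 10.07 and 10.02 with DMSO. These did not overlap either, but the difference of 0.23 ± 0.054 did not pass (limma, adjusted p = 0.187). At 6 h the intensities were 10.16, 10.12, 10.12 and 10.22 with celastrol and 10.07, 10.22 and 10.15 with DMSO. The groups overlapped at that time, with a difference of 0.0086 (95% interval -0.097 to 0.11). Averaged over the 3 times with equal weight, Per1 was higher with celastrol by 0.18 ± 0.030 (limma, adjusted p = 0.0072).

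The 1 day call of Per1 rests on few DMSO arrays. It was lost without replicate 1 (difference 0.28, limma, adjusted p = 0.0807) or replicate 3 (0.25, adjusted p = 0.0716) of the DMSO 1 day group, while the call on the average over times held in each of 30 alternatives.

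Of 12 marker lists for cell types and neighbouring tissue, 6 had mean intensities that did not overlap between the same arrays of 1 day. Astrocyte markers (9 tested) averaged 11.38 to 11.41 with celastrol and 11.43 to 11.50 with DMSO, and oligodendrocyte markers (8 tested) 11.21 to 11.37 with celastrol and 11.38 to 11.53 with DMSO. Cortex and hippocampus markers (6 tested) averaged 8.03 to 8.07 with celastrol and 8.08 to 8.29 with DMSO, and choroid plexus markers (6 tested) 7.82 to 7.88 with celastrol and 7.90 to 7.95 with DMSO. Higher with celastrol were the means of striatum markers (8 tested), at 10.26 to 10.40 against 10.18 to 10.24 with DMSO, and of ependymal and tanycyte markers (8 tested), at 8.87 to 8.95 against 8.73 to 8.84 with DMSO. Single markers did not all follow these means. Differences above 0 numbered 4 of 8 for striatum (median 0.029) and 6 of 8 for ependymal cells and tanycytes. In the lower lists they numbered 2 of 9 (astrocytes), 2 of 8 (oligodendrocytes), 1 of 6 (cortex and hippocampus) and 2 of 6 (choroid plexus). Of the single markers in these 6 lists, 1 striatum and 1 ependymal or tanycyte marker passed as higher, and 1 astrocyte and 1 oligodendrocyte marker as lower. Endothelial markers overlapped, with 1 of 8 passing as higher and 1 as lower. At 4 days 3 lists did not overlap (cortex and hippocampus, oligodendrocytes and blood, all lower with celastrol), and at 6 h 0 of 12. The blood mean rests on 2 tested markers of 7 listed, at 7.80 to 7.96 with celastrol and 8.01 to 8.15 with DMSO at 4 days. Of the 90 markers tested, 1 passed at 4 days, an oligodendrocyte marker that was lower, and 0 passed at 6 h. The part of these cell types in the Per1 values was not tested.

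The promoter of Per1 is shown because Per1 passed the test. It holds matches to motifs bound by both the loop and its output. Sequences are those of RefSeq on GRCm38.p6, and each is the 250 bases before a transcription start, 5′ to 3′ on the gene's strand. The table held 13 such promoters for 9 of the 10 genes, all but Per2. Capitals in the Per1 sequence (chr11:69098699-69098948, plus strand) mark, in order, an E-box (CACGTG), the letters TGACCT, which read AGGTCA on the opposite strand, and a D-box (TTATGNAA).
Per1: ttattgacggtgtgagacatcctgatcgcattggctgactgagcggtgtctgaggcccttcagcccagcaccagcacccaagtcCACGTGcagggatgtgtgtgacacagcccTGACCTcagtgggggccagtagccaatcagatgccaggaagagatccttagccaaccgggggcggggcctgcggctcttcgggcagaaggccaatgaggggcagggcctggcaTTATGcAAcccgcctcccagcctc
The E-box lay 166 to 161 bases before the start and the D-box 24 to 17 bases before it. In all, 6 motifs were searched on both strands, and no 2 of the marked matches share a base. CACGTG was found in 6.02% of the 32851 promoters of the table and in those of Per1, Cry1 and Ciart. TTATGNAA was found in 3.07% of the table's promoters and in those of Per1 and Per3. AGGTCA with 3 more bases before it, the core that ROR and REV-ERB proteins share, was found in 13.9% and in those of Per1 and Clock. CACGTT, a variant E-box, was found in 3.85% and in those of Cry1, Cry2 and Nr1d1. The cyclic AMP element TGACGTCA (1.55%) and ACANNNTGT, the core bound by the glucocorticoid receptor (5.84%), matched none of the 13, which says only that these letters are not in these windows. Per1 has a further start in the table (window chr11:69099902-69100151), whose 250 bases held none of the 6 motifs.

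**Figure D1:**
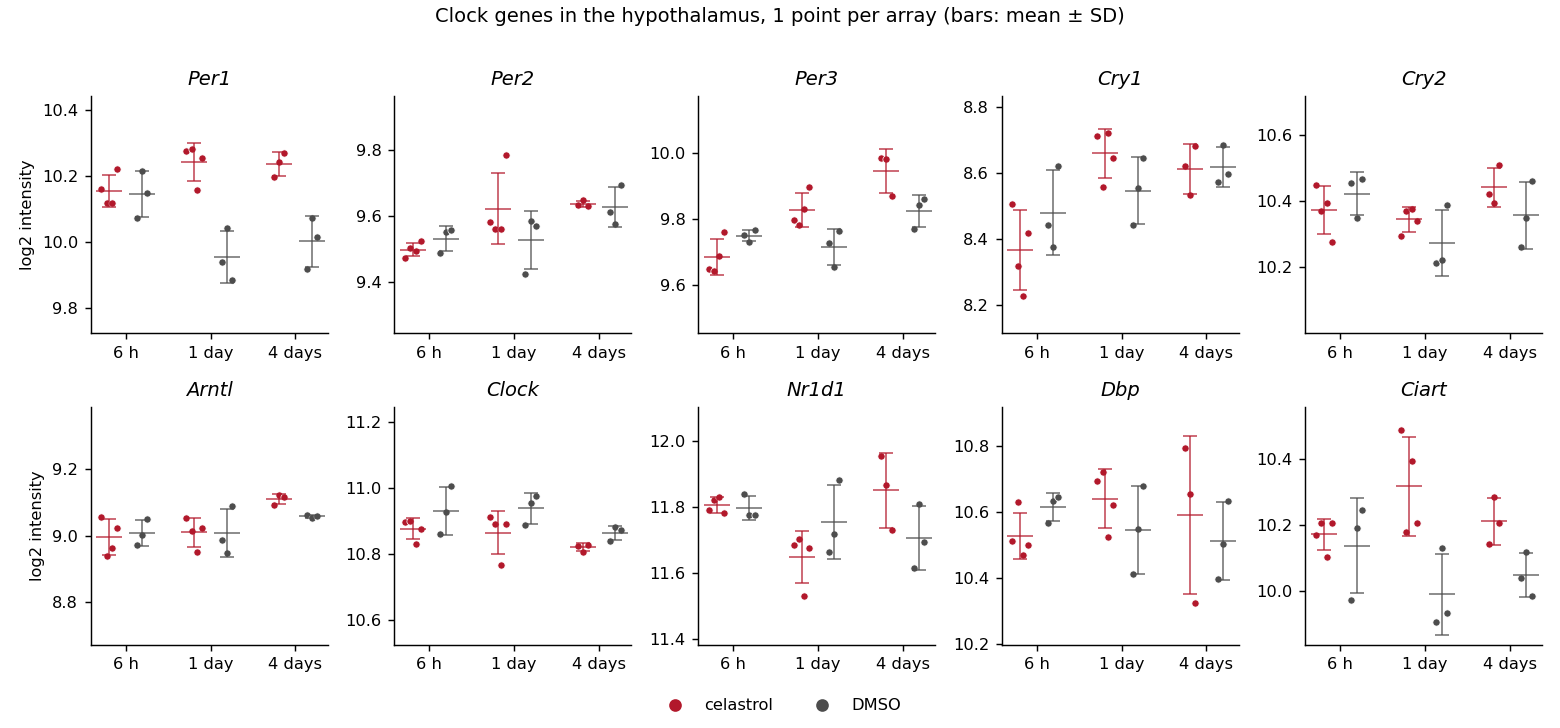
Log2 intensity of the 10 clock genes, 1 panel per gene, with 1 point per array, celastrol left of DMSO at each time, and bars for the mean ± SD. Per1 is higher on all celastrol arrays than on all DMSO arrays at 1 day and 4 days and overlaps at 6 h; the panels span equal ranges.

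The other period genes showed smaller celastrol differences than Per1 at 1 day and 4 days. Per3, a partner of PER1 and PER2 with a lesser part in the loop, read 9.80, 9.78, 9.83 and 9.90 in celastrol hypothalami at 1 day, against 9.73, 9.65 and 9.76 in DMSO hypothalami. At 4 days it read 9.98, 9.98 and 9.87 with celastrol and 9.77, 9.84 and 9.86 with DMSO. The groups did not overlap at either time, but the differences of 0.11 ± 0.045 and 0.12 ± 0.048 did not pass (limma, adjusted p = 0.465 and 0.666). At 6 h Per3 read 9.65, 9.64, 9.69 and 9.76 with celastrol and 9.75, 9.73 and 9.77 with DMSO, a difference of -0.065 ± 0.045 (limma, adjusted p = 0.722). Per2, a core repressor of the loop, ranged over 9.43 to 9.78 on all 20 arrays. Its differences were -0.033 at 6 h, 0.095 at 1 day and 0.0099 at 4 days, the last of which turned sign with another scaling of the arrays, and its arrays overlapped at each time.

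The test that Per3 passed was one of time within the celastrol arrays. It was higher at 4 days than at 6 h by 0.26 ± 0.045, a 1.20-fold rise (95% interval 1.12 to 1.28, limma, adjusted p = 0.0322), and the 3 arrays of 4 days were all above the 4 arrays of 6 h. The celastrol arrays of 1 day lay between, at 9.83 ± 0.050 (SD, n = 4). In DMSO hypothalami Per3 was 9.82 ± 0.047 at 4 days and 9.75 ± 0.018 at 6 h (SD, n = 3 each), a difference of 0.075 ± 0.048 (limma, adjusted p = 0.620). The change with celastrol exceeded that with DMSO by 0.19, which did not pass (limma, adjusted p = 0.611). The call was lost without any of 5 single arrays, namely replicates 1, 2 and 3 of celastrol 6 h and replicates 1 and 2 of celastrol 4 days, with adjusted p of 0.0562 to 0.171, and when each array was first centred on its median (adjusted p = 0.0555). Of the 12 marker lists, 3 did not overlap between the same groups: the mean intensity of the 4 pituitary markers tested, of 9 listed, was 7.57 to 8.29 at 4 days and 8.30 to 8.97 at 6 h, and that of the 6 cortex and hippocampus markers tested, of 8 listed, was 7.99 to 8.02 at 4 days and 8.12 to 8.23 at 6 h. The mean of the 2 blood markers tested, of 7 listed, was 7.80 to 7.96 at 4 days and 7.98 to 8.28 at 6 h. None of these markers passed the test, and their part in the Per3 result was not tested.

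The promoter of Per3 (chr4:151044666-151044915, minus strand, RefSeq on GRCm38.p6) is shown because Per3 passed a test. It carries 2 D-boxes, in capitals, at 205 to 198 and 158 to 151 bases before the start.
Per3: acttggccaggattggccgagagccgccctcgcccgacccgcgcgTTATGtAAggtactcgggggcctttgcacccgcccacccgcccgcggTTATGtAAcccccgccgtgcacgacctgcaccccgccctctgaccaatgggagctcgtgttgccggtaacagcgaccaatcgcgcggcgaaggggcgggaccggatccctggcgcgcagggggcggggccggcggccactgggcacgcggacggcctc
It held no match to the other 5 motifs in these 250 bases.

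The cryptochromes, which with the PER proteins silence CLOCK and BMAL1, did not pass in any comparison. Cry1 read 8.51, 8.32, 8.23 and 8.42 in celastrol hypothalami at 6 h, 8.71, 8.56, 8.72 and 8.65 at 1 day and 8.62, 8.53 and 8.68 at 4 days. The DMSO values were 8.44, 8.38 and 8.62 at 6 h, 8.44, 8.55 and 8.65 at 1 day and 8.57, 8.69 and 8.60 at 4 days. Celastrol and DMSO overlapped at all 3 times, while among celastrol arrays those of 1 day and 4 days were all above those of 6 h. Those time differences were 0.29 ± 0.065 at 1 day (limma, adjusted p = 0.0700) and 0.24 ± 0.070 at 4 days (limma, adjusted p = 0.0778). The first of them passed without replicate 1 of celastrol 6 h or replicate 3 of DMSO 6 h. Cry2 ranged over 10.21 to 10.51 on all arrays, with celastrol differences of -0.050, 0.072 and 0.085 at 6 h, 1 day and 4 days and overlap at each.

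Ciart, whose product CHRONO is a further repressor of CLOCK and BMAL1, had the highest difference among the 10 genes at 1 day. Its brighter probe set read 10.49, 10.18, 10.39 and 10.20 in celastrol hypothalami at 1 day, against 9.91, 10.13 and 9.93 in DMSO hypothalami. The arrays did not overlap, yet the difference of 0.33 ± 0.077, 1.25-fold with a 95% interval of 1.12 to 1.40, did not pass (limma, adjusted p = 0.0825). Its dimmer probe set read 9.37, 9.35, 9.37 and 9.48 with celastrol and 8.91, 9.10 and 9.06 with DMSO at that time, and its difference of 0.37 ± 0.075 passed (limma, adjusted p = 0.0310). The mean of both probe sets gave 0.35 (limma, adjusted p = 0.0100). Averaged over the 3 times the dimmer set passed (0.23 ± 0.044, limma, adjusted p = 0.0181). The brighter set did not (0.18 ± 0.046, limma, adjusted p = 0.106). At 4 days the brighter set read 10.14, 10.28 and 10.20 with celastrol and 10.04, 10.12 and 9.98 with DMSO, with no overlap, and the dimmer set overlapped. Neither difference passed at 4 days (0.16 and 0.15, limma, adjusted p = 0.779 and 0.795). At 6 h both sets overlapped, with differences of 0.035 ± 0.077 on the brighter and 0.16 ± 0.075 on the dimmer (limma, adjusted p = 0.923 and 0.657).

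**Figure D2:**
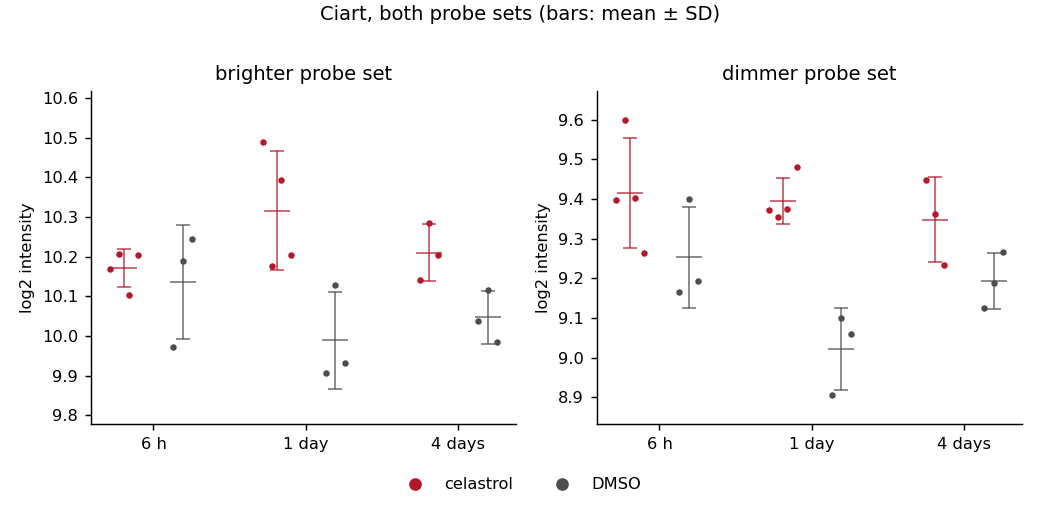
Log2 intensity of both Ciart probe sets by time, 1 point per array, celastrol left of DMSO, with bars for the mean ± SD. On both probe sets the 4 celastrol arrays of 1 day lie above the 3 DMSO arrays of 1 day.

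The Ciart promoter (chr3:95882229-95882478, minus strand, RefSeq on GRCm38.p6), chosen after its values were seen, carries 3 matches to CACGTG, in capitals, at 116 to 111, 58 to 53 and 44 to 39 bases before the start.
Ciart: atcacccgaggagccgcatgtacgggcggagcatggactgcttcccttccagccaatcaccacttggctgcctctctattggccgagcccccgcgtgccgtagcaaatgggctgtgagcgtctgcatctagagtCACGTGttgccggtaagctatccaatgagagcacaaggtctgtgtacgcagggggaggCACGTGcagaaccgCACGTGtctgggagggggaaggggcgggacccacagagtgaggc
Per1 and Cry1 held 1 CACGTG each, and the promoters of the other 6 genes in the table held none.

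The activators of the loop, Arntl and Clock, did not pass in any comparison. Arntl, which encodes BMAL1, lay within 8.94 to 9.12 on all 20 arrays, a range of 0.18, the narrowest of the 10 genes. Its celastrol difference at 1 day was 0.0026 with a 95% interval of -0.085 to 0.090, which as a fold is 0.943 to 1.06. At 6 h it was -0.013 and at 4 days 0.052, and the differences at 6 h and 1 day turned sign with another scaling. Its celastrol arrays of 4 days were all above those of DMSO (limma, adjusted p = 0.919). Clock ranged over 10.77 to 11.01 with celastrol differences of -0.054, -0.074 and -0.045 at 6 h, 1 day and 4 days, of which none passed. The Clock arrays of celastrol at 4 days were all below those of DMSO (limma, adjusted p = 0.946). Averaged over the times its difference was -0.058 ± 0.026 (limma, adjusted p = 0.520).

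Nr1d1, the repressor of Arntl, read 11.69, 11.70, 11.53 and 11.68 in celastrol hypothalami at 1 day and 11.96, 11.87 and 11.73 at 4 days. In DMSO hypothalami it read 11.66, 11.72 and 11.88 at 1 day and 11.62, 11.81 and 11.69 at 4 days. The celastrol difference was -0.11 ± 0.061 at 1 day and 0.14 ± 0.065 at 4 days, with overlapping arrays at both (limma, adjusted p = 0.675 and 0.751). Among celastrol arrays, those of 4 days were all above those of 1 day, by 0.20 ± 0.061 (limma, adjusted p = 0.229). At 6 h it stood at 11.81 ± 0.024 with celastrol (SD, n = 4) and 11.80 ± 0.036 with DMSO (SD, n = 3). Dbp, the D-box activator, averaged 10.53 ± 0.070, 10.64 ± 0.089 and 10.59 ± 0.24 in celastrol hypothalami at 6 h, 1 day and 4 days (SD, n = 4, 4 and 3). The DMSO means were 10.62 ± 0.041, 10.55 ± 0.13 and 10.51 ± 0.12 (SD, n = 3 each). Its arrays overlapped at each time, and at 1 day the interval of the difference ran from -0.089 to 0.28.

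**Figure D3:**
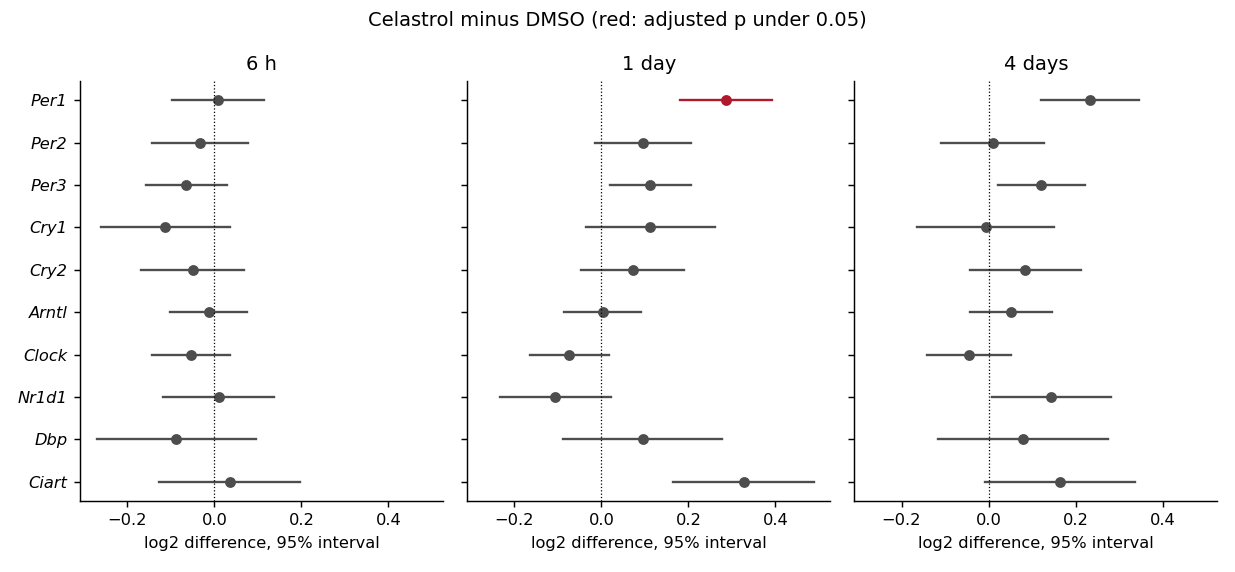
Log2 difference, celastrol minus DMSO, of the 10 clock genes at 6 h, 1 day and 4 days, with 95% intervals. Per1 at 1 day (0.29) is in red, the only difference of the 30 that passed an adjusted p of 0.05, with Ciart read from its brighter probe set.

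Most of the clock genes had differences above 0 at the later times and below 0 at 6 h. At 6 h 3 of 10 differences were above 0, and their median was -0.042, against -0.015 over all genes tested. With each array centred on its median 4 of 10 were above 0, and the medians were -0.012 over the clock genes and 0.015 over all genes. None of the 10 passed at 6 h, where 0% of all genes passed, and none reached an unadjusted p of 0.05, which 7.55% of all genes did. These counts use the brighter Ciart probe set. The dimmer set reached that unadjusted limit at 6 h (0.16, limma, unadjusted p = 0.0438). At 1 day 8 of 10 were above 0 with a median of 0.095, against 0.0063 over all genes. Per1 was the 1 gene of 10 that passed, with Ciart read from its brighter probe set, where 0.425% of all genes passed. At 4 days 8 of 10 were again above 0 with a median of 0.082, against 0.0075 over all genes. With centred arrays 7 of 10 were above 0 at 1 day (median 0.069) and 7 of 10 at 4 days (median 0.065). None of the 10 passed at 4 days, where 0.0637% of all genes passed, and 3 of 10 (Per1, Per3 and Nr1d1, all higher) reached the unadjusted limit, as 6.53% of all genes did. Over the average of times 1 of 10 passed, again Per1 and with the brighter Ciart probe set, with 0.573% of all genes.

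Whether the celastrol difference itself changed with time was tested for each gene, and no clock gene passed. From 6 h to 1 day the difference of Per1 grew by 0.28 ± 0.071 (limma, adjusted p = 0.323). In this contrast 0 of 10 clock genes passed, where 0.00708% of all genes passed, and Per1, Per3, Cry1 and Ciart reached the unadjusted limit, as 10.3% of all genes did. The dimmer Ciart probe set did not reach it (limma, unadjusted p = 0.0612). From 6 h to 4 days 0 of 10 passed (0.0142% of all genes), and Per1 and Per3 reached the unadjusted limit (7.68% of all genes). From 1 day to 4 days 0 of 10 passed (0.00708% of all genes), and Nr1d1 alone reached the unadjusted limit (2.47% of all genes), with a change of 0.25.

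Within DMSO hypothalami Per1 was 9.96 ± 0.079 at 1 day and 10.15 ± 0.071 at 6 h (SD, n = 3 each), and no array of 1 day reached the lowest of 6 h. That difference was -0.19 ± 0.054 (limma, adjusted p = 0.151). Within celastrol hypothalami the means were 10.24 ± 0.058 at 1 day and 10.16 ± 0.048 at 6 h (SD, n = 4 each), a difference of 0.088 ± 0.047 (limma, adjusted p = 0.348). Comparisons of a treatment over time share arrays with those of celastrol and DMSO, so they are not separate evidence. Among DMSO arrays 0 of 10 clock genes passed from 6 h to 1 day, where 0.0991% of all genes passed, and Per1 and Cry2 reached the unadjusted limit, both lower at 1 day, with 12.5% of all genes. The dimmer Ciart probe set reached it too, lower at 1 day (-0.23, limma, unadjusted p = 0.0096). From 6 h to 4 days 0 of 10 passed (0.0283% of all genes) and Per1 reached the unadjusted limit, lower at 4 days (10.6% of all genes). From 1 day to 4 days 0 of 10 passed (0% of all genes) and Per3 reached the unadjusted limit, higher at 4 days (7.37% of all genes). The dimmer Ciart probe set did as well, higher at 4 days (0.17, limma, unadjusted p = 0.0460).

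Among celastrol arrays 0 of 10 passed from 6 h to 1 day, where 0.134% of all genes passed. Per2, Per3 and Cry1, higher at 1 day, and Nr1d1, lower at 1 day, reached the unadjusted limit, as 17.2% of all genes did. From 6 h to 4 days Per3 was the 1 of 10 that passed, where 0.892% of all genes passed. From 1 day to 4 days 0 of 10 passed (0.0425% of all genes), and Per3, Arntl and Nr1d1, higher at 4 days, reached the unadjusted limit (12.1% of all genes).

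**Figure D4:**
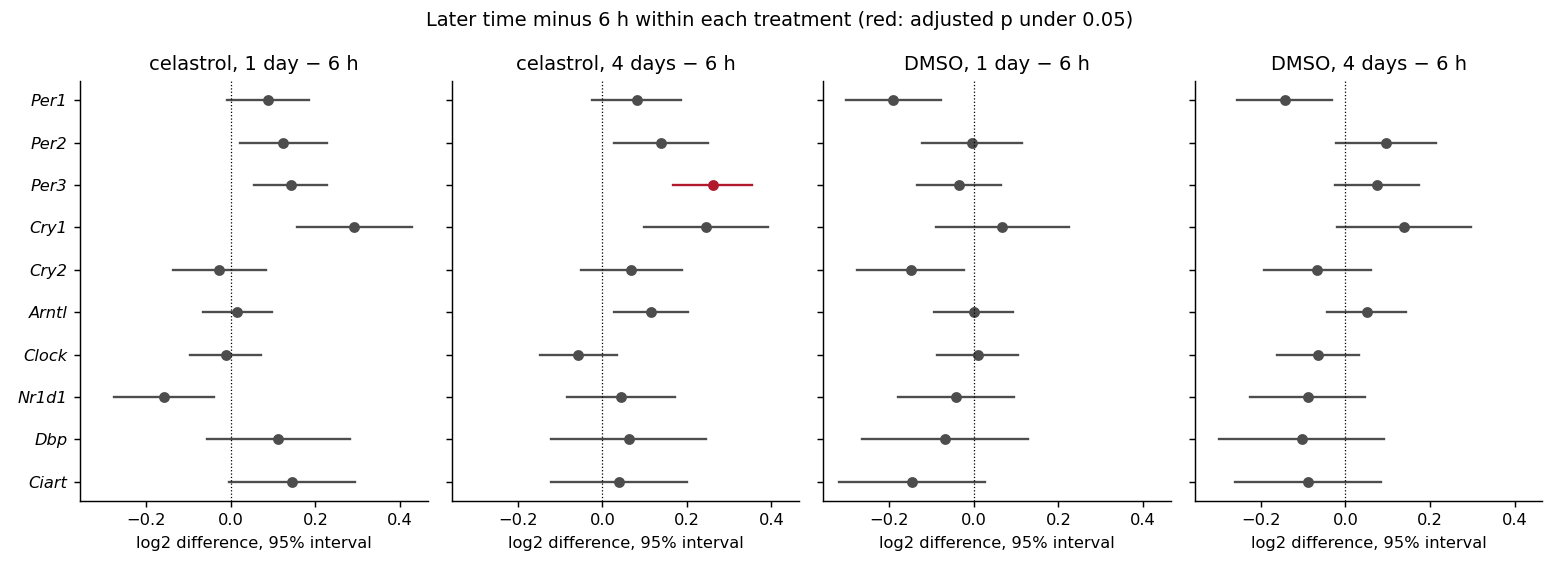
Log2 difference between a later time and 6 h within celastrol arrays (left panels) and within DMSO arrays (right panels) for the 10 clock genes, with 95% intervals. Per3 in celastrol arrays from 6 h to 4 days (0.26) is in red, the only one that passed an adjusted p of 0.05, and Per1 in DMSO arrays lies below 0.

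The levels of each gene over the 6 groups were ordered by their means. Per1 ran from celastrol 1 day (10.24) through celastrol 4 days (10.24) and 6 h (10.16) to DMSO 6 h (10.15), 4 days (10.002) and 1 day (9.96). Neighbours in that order differed by more than the larger of their SDs between celastrol 4 days and 6 h, and between DMSO 6 h and 4 days, and not elsewhere. For Per3 the gaps beyond the SD lay between celastrol 4 days (9.95) and celastrol 1 day (9.83), and between DMSO 4 days (9.82) and DMSO 6 h (9.75). For Arntl they lay between celastrol 4 days (9.11) and DMSO 4 days (9.06), and between celastrol 1 day (9.01) and DMSO 4 days, and for Clock between celastrol 4 days (10.82) and DMSO 4 days (10.87). For Per2, Cry1, Cry2, Nr1d1, Dbp and Ciart no neighbouring groups were farther apart than their SD. The widest spread over arrays was that of Ciart, 0.58.

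None of the other loop genes passed with celastrol at a single time. Of 20 listed, among them kinases, ROR receptors and paralogues of the members, 17 were tested, and 0 passed at 6 h, 1 day or 4 days. Their median differences were -0.027, 0.0016 and 0.014 at those times. At 1 day the smallest p-values were those of Timeless (-0.18, limma, adjusted p = 0.609) and Bhlhe41, a repressor of E-box genes (0.11, limma, adjusted p = 0.687). At 6 h they were those of Rora, an activator of Arntl (-0.31, limma, adjusted p = 0.431), and Hlf, a D-box factor (-0.12, limma, adjusted p = 0.647). At 4 days they were those of Arntl2, the paralogue of Arntl (0.16, limma, adjusted p = 0.614), and Nfil3, a D-box repressor (0.24, limma, adjusted p = 0.739). Rora is also a thalamus marker. The mean of 8 thalamus markers, Rora among them, was 9.47 to 9.59 with celastrol and 9.56 to 9.94 with DMSO at 6 h. The part of the thalamus in the Rora value was not tested. Arntl2 passed among celastrol arrays from 6 h to 4 days, at 8.85 ± 0.054 in 4 day hypothalami (SD, n = 3) and 8.61 ± 0.044 in 6 h hypothalami (SD, n = 4, limma, adjusted p = 0.0475). That call was lost in 13 of 20 fits that left out an array, with adjusted p up to 0.191.

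Among genes listed as clock outputs, 5 passed as higher with celastrol than with DMSO at 1 day. Of 25 listed, 23 were tested, and the 5 stand against 0.425% of all genes called at 1 day. The list was chosen with earlier results of these data known, so the count is a description. It shares genes with the list of glucocorticoid-induced genes given below, and the part of the clock in these differences was not tested. The median difference over the 23 was 0.084, against 0.0063 over all genes. The 6 marker lists given beside Per1 separate the same arrays, and their part in these genes was not tested. Of the 5, the 4 with the smallest p follow with their tests. Usp2, a ubiquitin protease under E-box control, was 10.14 ± 0.074 with celastrol (SD, n = 4) and 9.76 ± 0.076 with DMSO (SD, n = 3), a difference of 0.38 ± 0.058 (limma, adjusted p = 0.00406), and it passed in every fit that left out an array. Klf13, a zinc finger factor, was higher by 0.35 ± 0.059 (limma, adjusted p = 0.00911), and lost the call without replicate 1 or 3 of DMSO 1 day (adjusted p = 0.0543 and 0.0669). Tsc22d3 and Fkbp5 were higher by 0.61 ± 0.11 and 0.88 ± 0.17 (limma, adjusted p = 0.0192 and 0.0256), and lost the call in 4 and 5 of 20 fits that left out an array. Both are known targets of the glucocorticoid receptor and stand in that list too. Klf9 also stands in both lists. At 1 day it is given by its means only, 10.83 ± 0.083 with celastrol (SD, n = 4) and 10.48 ± 0.060 with DMSO (SD, n = 3). It passed on the average over times (0.22 ± 0.042, limma, adjusted p = 0.0158). For Usp2, Klf13, Tsc22d3 and Fkbp5 the DMSO means were 10.005, 9.35, 10.33 and 9.15 at 6 h and 9.76, 9.20, 9.79 and 8.71 at 1 day. The celastrol means were 10.08, 9.38, 10.30 and 9.34 at 6 h and 10.14, 9.55, 10.40 and 9.59 at 1 day. From 6 h to 1 day 0 of 23 passed within either treatment. For celastrol minus DMSO at 6 h and 4 days 0 of 23 passed. The 16 markers of the suprachiasmatic nucleus were all tested and 0 passed at 6 h, 1 day or 4 days, with medians of -0.093, 0.057 and 0.0079. The smallest p-values at 1 day were those of Lhx1 (-0.12, limma, adjusted p = 0.533) and Rgs16 (0.15, limma, adjusted p = 0.653). Of 15 immediate early genes tested 0 passed at these times, and the smallest p-values at 1 day were those of Arc, lower with celastrol (-0.24, limma, adjusted p = 0.0534), and Dusp1 (0.17, limma, adjusted p = 0.506).

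Per1 also belongs to a list of genes that glucocorticoids induce. Of 18 such genes tested, Per1 included, 10 were higher with celastrol at 1 day, where 0.425% of all genes passed in either direction, 1 at 4 days (0.0637% of all genes) and 0 at 6 h (0% of all genes). The mean intensity of the other 17 at 1 day was 10.34 to 10.50 with celastrol and 9.78 to 9.88 with DMSO. At 4 days it was 9.97 to 10.61 with celastrol and 9.73 to 9.95 with DMSO, and at 6 h 10.23 to 10.41 with celastrol and 10.06 to 10.52 with DMSO. The part of glucocorticoids in the Per1 values was not tested.

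**Figure D5:**
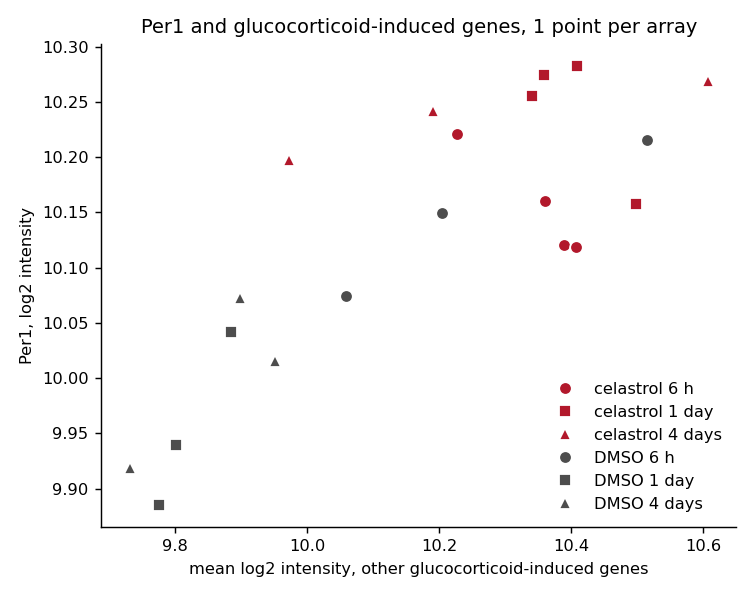
Log2 intensity of Per1 against the mean log2 intensity of 17 other glucocorticoid-induced genes, 1 point per array, coloured by treatment and shaped by time. The DMSO arrays of 1 day and 4 days lie low on both axes, and the celastrol arrays and those of DMSO 6 h lie higher.

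Across the 20 arrays, the genes outside the 10 whose values were most like those of Per1, among 13677, were Usp2 (Pearson r = 0.880), the kinase gene Sgk1 (0.879) and the tissue factor gene F3 (0.869). These arrays share the group differences, and after each group's mean was taken off the closest were Zfp575 (0.748), Cnot3 (0.745) and Pianp (0.736). For Per3 they were Iqce (0.904), Eif2ak4 (0.899) and Ppp1r9a (0.883), and after the group means were taken off Plekha7 (0.874), Mapk8ip2 (0.861) and Vwa5b1 (0.794). Among the 45 pairs of clock genes the median r of the values was 0.196, and it ran from -0.47 for Per3 and Clock to 0.762 for Per1 and Ciart. After the group means were taken off, those pairs had r of -0.025 and 0.384, and the range was -0.32 for Cry2 and Ciart to 0.758 for Nr1d1 and Dbp. Array intensity and tissue makeup are shared by all points, so these r values are descriptions.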

How the data were processed

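RNA of the hypothalamus was hybridised to 20 arrays. The authors deposited 1 table of log2 intensities for 23492 probe sets, made with RMA per the submitters' processing notes (background correction, quantile normalization and summary of probes), whose version is not given in the sources used here. RMA compresses low intensities, so folds may be understated. Array medians were 8.60 to 8.65. Platform annotation gave 1 symbol to 20228 probe sets, several to 1399 and none to 1865. The brightest probe set over all arrays stood for a gene, and genes under the 25th percentile of mean intensity (7.04) were left out. A model with 1 mean per group over all 20 arrays was fitted with limma 3.58.1 in R 4.3.3 (lmFit, eBayes, 14 residual degrees of freedom, two-sided, Benjamini-Hochberg over 14129 genes, threshold 0.05). The fit was first run on simulated data, in which genes varied independently and arrays shared no component, unlike the real arrays. That run checked the code and does not bear on the calls given here. Celastrol was compared with DMSO at each time and over times, and times within each treatment. The number of arrays limits precision.

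All 10 clock genes were described throughout. From other lists, up to 4 genes past the threshold were named, otherwise the 2 with the smallest p. The members and lists were chosen with earlier results of these data known. Alternatives were other scalings, filters, probe set rules, array weights, an intensity trend, fits on fewer groups, a replicate block and leaving out each array. No array was left out of the main values.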

Additional observations from a re-analysis of the deposited data

Results flagged for a closer look

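In 20 groups of 4 arrays tested for an array far from the others (10 genes in celastrol 6 h and celastrol 1 day), 3 held one, where chance gives about 1 in 20 groups. Per2 was 9.78 on replicate 4 of celastrol 1 day, above the other 3, and its difference from DMSO at 1 day was 0.042 without that array and 0.095 with it. Clock was 10.77 on replicate 3 of celastrol 1 day, below the others, and its difference was -0.042 without that array and -0.074 with it. Nr1d1 was 11.53 on the same replicate 3, again below the others, with a difference of -0.066 without it and -0.11 with it. None of these differences passed the test either way.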

How the results depend on the processing

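The counts of clock genes past the threshold were recomputed in 13 comparisons under 30 alternatives (20 that leave out an array and 10 others), and 370 of 390 counts matched the main count. Most comparisons had a main count of 0, so this share says little about the calls themselves. The Per1 call at 1 day held in 18 of 20 fits without an array and in 8 of 10 others. The Per3 call from 6 h to 4 days held in 15 of 20 and in 8 of 10. No direction of Per1, Per3, Ciart, Usp2, Klf13, Tsc22d3, Fkbp5 or Arntl2 reversed where recomputed. Alternatives for Ciart and for the genes outside the 10, and the fit without both arrays that stand apart, were chosen after seeing the data. For celastrol minus DMSO at 1 day the main count was 1. It was 2 with the mean of a gene's probe sets and 2 with an intensity trend (Per1 and Ciart), 0 with only the compared groups in the fit (Per1 adjusted p = 0.0747, limma), 0 without both arrays that stand apart (0.0664), and 0 to 2 when each array was left out. Averaged over times it was 2 with the mean of probe sets. Among celastrol arrays from 6 h to 1 day the main count was 0, with 1 (Cry1) without both arrays that stand apart and 0 to 1 when each array was left out. From 6 h to 4 days the main count was 1, with 0 for arrays centred on their medians and 0 with only the compared groups, 2 with array weights and 2 without both arrays that stand apart (Per3 and Cry1), and 0 to 1 when each array was left out. The causes were not tested. With a replicate block the difference of Per1 at 1 day was 0.27 (limma, adjusted p = 0.0160) and no call of a clock gene changed; the block is not a pairing, since deviations of same-numbered arrays of different groups correlated with a median r of 0.010 over 46 pairs. Counts over all genes ran from 18 to 196 at 1 day (main 60), from 0 to 20 at 4 days (9), from 0 to 6 at 6 h (0), from 39 to 156 over times (81), from 0 to 78, 0 to 51 and 0 to 147 among DMSO arrays from 6 h to 1 day (14), 6 h to 4 days (4) and 1 day to 4 days (0), from 1 to 211, 1 to 656 and 1 to 16 among celastrol arrays over the same steps (19, 126 and 6), and from 0 to 4, 0 to 4 and 1 to 1 for changes of the celastrol difference (1, 2 and 1).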
